A study of Mus musculus with 2 samples.

Results

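The 78 genes described here are the kinesins, the named centromere proteins and the genes of the spindle checkpoint, the mitotic kinases and cytokinesis, as measured in CH cells. They were taken by name from the probe sets of the arrays that name 1 gene only: every Kif symbol with a number and at most 1 letter, every Cenp symbol with 1 letter, and 21 further genes from Anln to Ttk. They are read by 182 of 34945 such probe sets and make up 78 of 18193 genes. CH cells are small cells of mouse blood that were sorted as viable, DNA-containing events without CD45 and without lineage markers. The 2 samples, which make up a single group and have no comparison group, are RNA from separate pools of circulating cells of adult C57bl/6 mice, male and female, hybridized to 1 array each. The submitters' notes give 15 mice per pool and an age of 7 months, whereas the study's methods state fewer mice per pooled group and a younger age. No transgene, mutation or treatment is named for these mice.

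Kinesins are motor proteins that walk along microtubules or take their ends apart, using ATP. Some build and shorten the mitotic spindle, align chromosomes or close the midbody, and are made mainly by dividing cells, while others carry vesicles, organelles and RNA in cells that do not divide, neurons above all. The centromere is marked by Cenpa, a variant of histone H3, on which the inner centromere proteins assemble. The Ndc80 complex then holds the microtubule, and the spindle checkpoint delays anaphase until every chromosome is attached.

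The values are log2 signals per probe set, a probe set being a group of short oligonucleotides against 1 transcript. The highest probe set by mean stands for a gene, and each level is given on array 1 and on array 2. A gene was called above 5 or above 8 (log2) when at least 1 probe set exceeded that value on both arrays, and the mean was also set against 5 with limma, adjusted over 45037 probe sets. Of all genes, 71.2% were above 5 and 37.0% above 8, and their median level was 6.84. Signals also reflect the affinity of each probe set, so they do not rank transcripts of different genes, and in pooled RNA fewer cells with a transcript and less of it per cell cannot be told apart. Of 75 chemosensory receptor genes, taken as background, 13 (17.3%) were above 5 and 0 above 8, with the highest at 6.92. Nothing says whether the pools were drawn from different animals, so p-values measure only the spread between these 2 samples, which may be technical. Between the arrays, Pearson's r across all probe sets, which are not independent replicates, was 0.997, and the SD of the difference was 0.20. Ptprc, which encodes CD45, was at 4.95 and 5.24, and 0 of 10 leukocyte, 0 of 8 erythroid, 0 of 4 platelet and 0 of 7 endothelial marker genes were above 8, against 8 of 10 mesenchymal ones. Above 5 were 6 leukocyte, 4 erythroid, 4 platelet and 3 endothelial genes and all 10 mesenchymal ones.

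The marker genes at either end of each list give the range. Among leukocyte genes, Itgam was at 3.78 and 3.92 and Cd5 at 4.50 and 4.55, and Laptm5 was at 6.68 and 6.70 and Csf1r at 7.49 and 7.35. Among erythroid genes, Hbb-b2 was at 3.93 and 4.03 and Hba-a1 at 4.25 and 4.18, and Hba-a2 was at 6.50 and 6.43 and Epor at 7.26 and 7.01. The 4 platelet genes were Pf4 at 5.96 and 6.0, Gp9 at 6.15 and 6.67, Ppbp at 6.92 and 7.06 and Itga2b at 7.18 and 7.19. These blood cell genes thus stayed under 8 on both arrays. Among endothelial genes, Vwf was at 3.66 and 4.0 and Emcn at 4.17 and 4.16, and Cldn5 was at 5.67 and 5.38 and Kdr at 6.44 and 6.42. Among mesenchymal genes, Thy1 was at 7.50 and 7.44 and Lum at 8.0 and 7.87, and Fn1 was at 13.99 and 13.87 and Col1a2 at 14.24 and 14.29.

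Most genes of cell division had high signals in CH cells. Among the 52 members outside the transport and other kinesins, 51 were above 5 and 44 (84.6%) were above 8, beside 37.0% of all genes. Their median was 9.28. Of all 78 members, 70 (89.7%) were above 5 and 49 (62.8%) above 8, and limma gave the same count of 70 above 5, beside 69.1% of all genes. The 8 members not above 5 were all kinesins, Kif14, Kif5c, Kif6, Kif9, Kif12, Kif27, Kif28 and Kif2b. Of the 78 members, 5 lay below 5 by limma, where 23.6% of all genes did, and Kif5c, Kif6 and Kif27 lay on neither side. With the median probe set of a gene in place of the highest, 32 members were above 8, beside 25.1% of all genes. The means of 17 members lay below the highest chemosensory receptor gene, at 6.92, where 50.9% of all genes lay. These 17 were the 8 named and Kif15, Kif1a, Kif5a, Kif13b, Kif17, Kif24, Kif26a, Kif26b and Aurkc. The union of 52 genes was formed after the levels were known and is a description.

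Of 11 mitotic kinesins, 10 were above 5 and 9 above 8, beside 71.2% and 37.0% of all genes. Their median was 8.49. Kif11, known as Eg5, which slides spindle poles apart, was at 8.44 and 8.50 (mean 8.47 ± 0.04, SD, n = 2 arrays). Kif15, which can hold the spindle bipolar beside Kif11, was at 5.51 and 5.63 on its only probe set (adjusted p = 8.3e-04 from limma against 5). Kif2c, or MCAK, which shortens microtubules at centromeres and corrects attachment errors, was at 9.99 and 10.13 (10.06 ± 0.10, SD, n = 2). That was an _x_at probe set, which can read other transcripts, and the other probe sets of Kif2c had means of 8.59, 7.56 and 5.21. Kif18a, which damps the movement of chromosomes on the spindle, was at 8.35 and 8.64 with 1 probe set and had a mean of 3.61 with the other, and Kif18b, which shortens astral microtubules, at 8.12 and 8.01. The 2 chromosome-bound kinesins were both above 8. Kif22 was at 11.50 and 11.36 (11.43 ± 0.10, SD, n = 2), also with an _x_at probe set, and its other probe sets had means of 9.03 and 8.35. Kif4 was at 8.23 and 8.33. The 2 arrays lay close together for these genes, and the largest difference between the arrays in this group was 0.30, for Kif14. Kif23, the motor of the centralspindlin complex at the midzone, was at 9.46 and 9.32. Kif20a, which brings the chromosomal passenger complex to the midzone, was at 9.79 and 9.82, and its relative Kif20b was at 9.16 and 9.18. Kif14, a motor of cytokinesis, was at 3.66 and 3.37 with its only probe set (3.51 ± 0.21, SD, n = 2) and lay below 5 (adjusted p = 4.0e-05 from limma).

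Of 13 transport kinesins, 12 were above 5 and 4 (30.8%) above 8, beside 81.8% of the mitotic kinesins and 37.0% of all genes, and their median was 7.26. Among the heavy chains of conventional kinesin, the ubiquitous Kif5b was at 10.87 and 10.97 (10.92 ± 0.07, SD, n = 2), whereas the neuronal chains Kif5a and Kif5c were near the limit. Kif5a was at 5.81 and 5.28 (adjusted p = 0.013 from limma) with an _s_at probe set, which can read other transcripts, and its 2 other probe sets had means of 3.93 and 3.44, so that it was below 5 with the median probe set or without the _s_at one. Kif5c was at 4.98 and 5.22, which did not differ detectably from 5 (adjusted p = 0.33 from limma). Of the kinesin-3 motors, Kif1b, which carries mitochondria and synaptic vesicle precursors, was at 8.60 and 8.65 and Kif1c, a ubiquitous vesicle motor, at 8.31 and 8.33. Kif1a, their neuronal relative, was at 5.83 and 5.84. The other probe sets of Kif1c had means of 6.19, 5.90 and 5.11. Kif13a and Kif13b, motors of endosomes and signalling vesicles, were at 6.77 and 7.13 and at 6.59 and 6.55. The 3 other probe sets of Kif13b had means of 4.06, 4.02 and 4.02, and its median probe set was at 4.09. Kif16b, a motor of early endosomes, was at 7.12 and 7.39. The kinesin-2 motors that build cilia were above 5 throughout, with Kif3a at 8.07 and 7.90 and Kif3b, its partner, at 7.50 and 7.56. Kif3c, found chiefly in neurons, was at 8.43 and 8.04 with 1 probe set and had a mean of 5.44 with the other. Kif17, a motor of cilia and dendrites, was at 6.23 and 6.10. Of 10 neuronal marker genes, 8 were above 5 and 2 above 8, beside 71.2% and 37.0% of all genes. Stmn2 was at 9.32 and 9.33 and Gap43 at 8.92 and 8.63, while Snap25 was at 3.20 and 3.54 and Nefm at 4.58 and 4.81. The part of neuronal RNA in these kinesin levels was not tested.

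**Figure D1:**
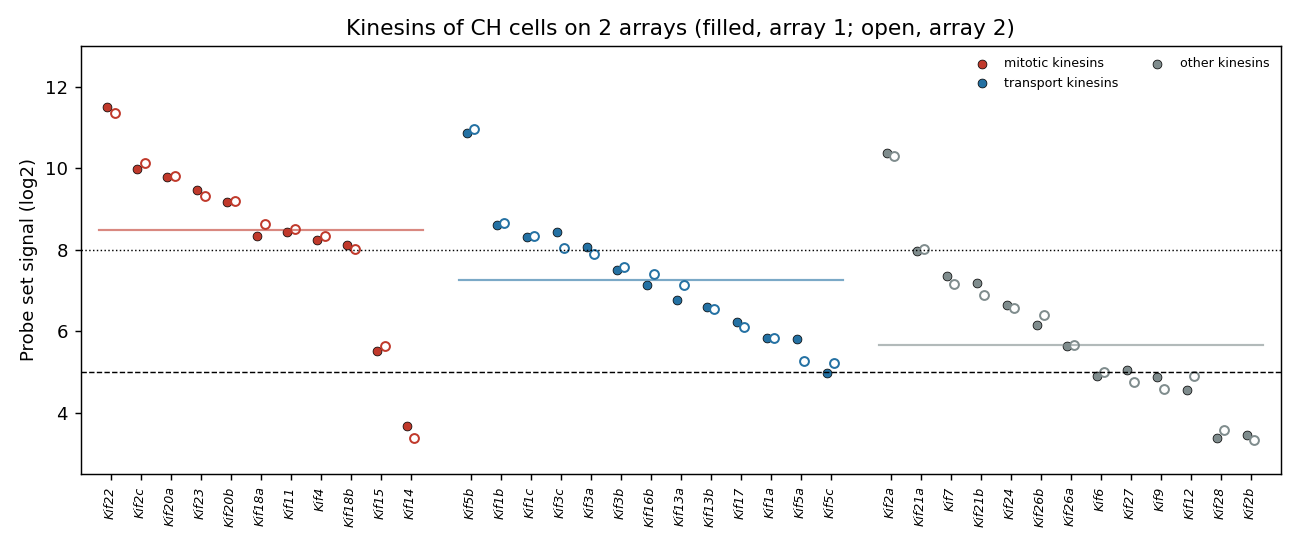
Log2 signal of the highest probe set of 37 kinesins in CH cells, ordered by mean within 3 groups along the horizontal axis, with a filled circle for array 1 and an open circle for array 2. Coloured lines mark group medians (8.49, 7.26 and 5.65), 5 is dashed and 8 dotted. Most mitotic kinesins lie above 8, and 9 of 11 do so on both arrays, beside 37.0% of all genes.

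The same groups were set side by side over all their probe sets. Transport kinesins had more probe sets per gene, 3.92 against 2.18, and the maximum of more probe sets tends to be higher. Above 5 were 19 of 24 (79.2%) probe sets of mitotic and 37 of 51 (72.5%) of transport kinesins, beside 64.8% of all probe sets that name 1 gene. Above 8 were 13 (54.2%) and 9 (17.6%), beside 29.0%. The medians over probe sets were 8.17 and 6.00, beside 6.10. With the median probe set per gene, 6 of 11 mitotic and 1 of 13 transport kinesins, Kif5b, were above 8, beside 25.1% of all genes. Of the mitotic kinesins, Kif20b had probe sets from 3.05 to 9.17, Kif23 from 3.63 to 9.39 and Kif18a from 3.61 to 8.49, so probe sets of the same gene lay on both sides of 5. Kif1b had all 7 of its probe sets above 5, from 5.82 to 8.62. The groups were not tested against each other, because genes are not replicates.

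**Figure D2:**
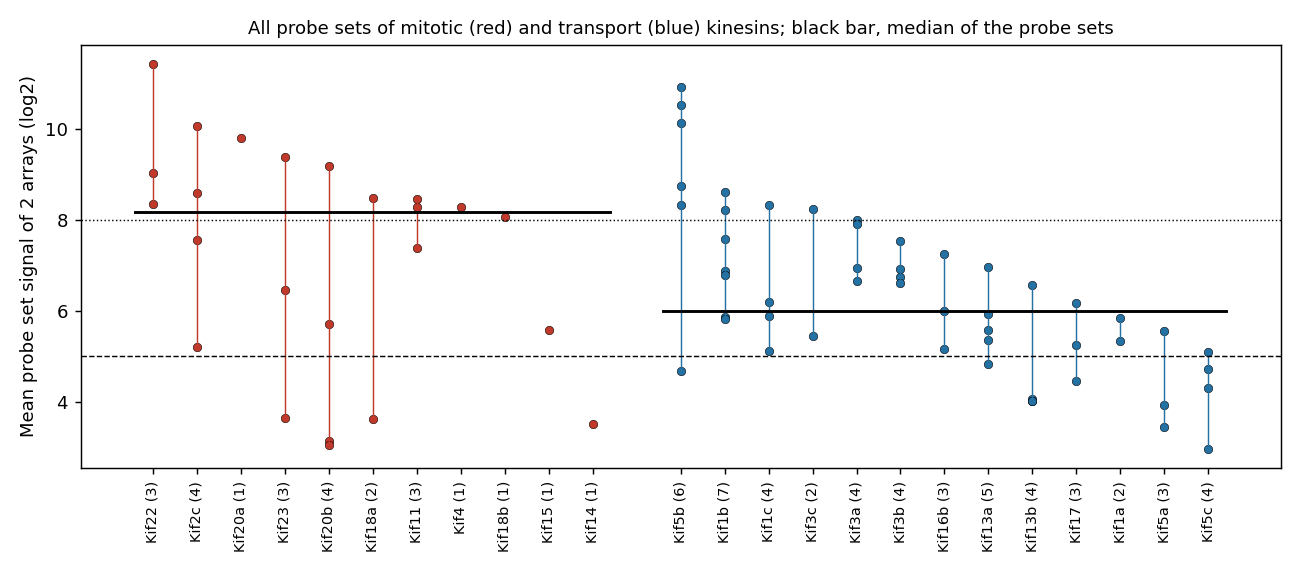
Mean log2 signal over both arrays of every probe set of 11 mitotic (red) and 13 transport (blue) kinesins, with the number of probe sets in brackets and a vertical line from the lowest to the highest. Black bars mark the medians over probe sets, 8.17 and 6.00, 5 is dashed and 8 dotted. Probe sets of 1 gene differ by up to 6.24, in Kif5b.

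The other 13 kinesins were a mixed group, with 7 (53.8%) above 5 and 1 (7.69%) above 8, beside 71.2% and 37.0% of all genes, and a median of 5.65. Kif2a, a relative of Kif2c that shortens microtubules in neurons and at spindle poles, was at 10.38 and 10.29 and was the only one above 8 on both arrays. Kif21a, which slows microtubule growth at the cell edge, followed at 7.96 and 8.02, and Kif21b at 7.18 and 6.88. Kif7, the regulator of Hedgehog signalling at the tip of the cilium, was at 7.34 and 7.16. Kif24, a centriolar protein that restrains cilia, was at 6.64 and 6.58, with means of 4.36 and 3.98 on its 2 other probe sets. Kif26b and Kif26a, kinesins of development that do not walk, were at 6.15 and 6.40 and at 5.64 and 5.66. Kinesins known from motile cilia lay at the limit. Kif6 was at 4.91 and 5.01, Kif27 at 5.06 and 4.74 and Kif9 at 4.88 and 4.59, with adjusted p-values of 0.60, 0.37 and 0.044 from limma. Of 8 marker genes of motile cilia, 3 were above 5 and 0 above 8, from Ccdc39 at 4.07 and 4.27 and Dnah5 at 4.22 and 4.31 to Rsph1 at 5.19 and 5.57 and Ccdc40 at 5.43 and 5.48. Kif2b, a relative of Kif2c known from testis, was at 3.44 and 3.34, beside 4 of 9 male germ cell genes above 5. Kif28 was at 3.38 and 3.56 and Kif12, known from kidney, at 4.56 and 4.89. Of the 6 kinesins here not above 5, Kif6 and Kif27 had 1 array on each side of it.

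Promoters of the members were read for short motifs of late cell cycle genes. Many genes that are switched on late in the cell cycle carry the cell cycle genes homology region (CHR), with the core TTTGAA, to which the MuvB proteins bind through Lin54. Many of them also carry CCAAT boxes, the site of the factor NF-Y. RefSeq promoter windows of 300 bases, from 250 before to 50 after the annotated start (build GRCm38.p6), were matched to 68 members with 78 windows. Members with no entry were Kif20a, Kif5a, Kif5b, Kif13b, Kif21b, Kif28, Spc24, Aurkb, Tpx2 and Incenp. Read on both strands, TTTGAA stood in 9 of 10 windows of mitotic kinesins and in 1 of 12 of transport kinesins. It stood in 17.9% of 32851 windows of all genes and in 13.4% of those of genes on the arrays. The transport kinesin was Kif1a, whose further window, at another annotated start, lacks TTTGAA. Within 50 bases of the start it stood in 7 of 10 mitotic windows, beside 4.94% of all. The mitotic kinesin without it was Kif18a. CCAAT stood in 6 of 10 and 4 of 12 windows, beside 37.4% of all, and both motifs together in 6 and 0, beside 6.95% of all. The motifs can overlap by at most 1 base, and windows of 1 gene that start close together share bases. Of the other members, TTTGAA stood in 6 of 6 windows of midzone and cytokinesis genes, 6 of 9 of checkpoint and Ndc80 genes, 3 of 5 of mitotic kinases and passenger proteins, 5 of 23 of centromere proteins and 2 of 13 of other kinesins. Kif14, which was below 5 on the arrays, has TTTGAA 228 bases before its start. Neither motif stood in a window of 11 of the 43 members above 8, or of 23 of all 68 members. Of all 27025 genes with a window, 20.2% had TTTGAA, 41.1% CCAAT and 7.97% both. The 11 members above 8 are Kif18a, Kif1c, Kif3c, Kif2a, Cenpb, Cenpp, Cenpt, Cenpv, Mad2l1, Nuf2 and Birc5. A match describes letters and not a bound site.

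The 250 bases before the start are shown for 4 mitotic genes with TTTGAA upstream of the start and for 2 transport kinesins without it, all chosen after their motifs and levels were known. Capitals mark TTTGAA and CCAAT, which read TTCAAA and ATTGG on the other strand. In Kif11 (chr19:37376132-37376381, plus strand) a TTTGAA match begins 19 bases before the start, and in Kif22 (chr7:127042421-127042670, minus strand) 17 and 215 bases before it. In both, a CCAAT match of the same orientation lies upstream of the TTTGAA match nearest the start. Prc1, a bundler of midzone microtubules (chr7:80294226-80294475, plus strand), has TTTGAA 30 bases before the start. Top2a, the topoisomerase that untangles chromosomes (chr11:99024190-99024439, minus strand), has 6 CCAAT and 2 TTTGAA matches. Kif1b (chr4:149307699-149307948, minus strand) has 2 CCAAT matches and Kif3a (chr11:53567119-53567368, plus strand) has 1.
Kif11: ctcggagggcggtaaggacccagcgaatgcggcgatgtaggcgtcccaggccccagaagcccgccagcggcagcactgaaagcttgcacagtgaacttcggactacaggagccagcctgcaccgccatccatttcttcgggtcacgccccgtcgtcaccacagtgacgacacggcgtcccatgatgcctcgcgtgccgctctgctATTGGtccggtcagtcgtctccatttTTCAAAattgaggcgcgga
Kif22: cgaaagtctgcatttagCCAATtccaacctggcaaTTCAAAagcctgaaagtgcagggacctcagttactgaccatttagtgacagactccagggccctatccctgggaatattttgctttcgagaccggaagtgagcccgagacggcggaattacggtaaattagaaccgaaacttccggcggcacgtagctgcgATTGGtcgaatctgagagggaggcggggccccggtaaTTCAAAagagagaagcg
Prc1: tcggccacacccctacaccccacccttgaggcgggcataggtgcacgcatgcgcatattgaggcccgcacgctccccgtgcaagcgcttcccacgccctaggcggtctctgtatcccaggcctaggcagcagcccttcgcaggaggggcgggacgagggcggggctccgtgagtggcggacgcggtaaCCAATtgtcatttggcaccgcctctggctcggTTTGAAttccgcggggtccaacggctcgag
Top2a: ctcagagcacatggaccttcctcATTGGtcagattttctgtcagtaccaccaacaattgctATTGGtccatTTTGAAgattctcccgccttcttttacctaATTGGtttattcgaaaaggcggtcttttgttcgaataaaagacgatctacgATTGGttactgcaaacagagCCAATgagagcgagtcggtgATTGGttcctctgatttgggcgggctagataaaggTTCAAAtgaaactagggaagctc
Kif1b: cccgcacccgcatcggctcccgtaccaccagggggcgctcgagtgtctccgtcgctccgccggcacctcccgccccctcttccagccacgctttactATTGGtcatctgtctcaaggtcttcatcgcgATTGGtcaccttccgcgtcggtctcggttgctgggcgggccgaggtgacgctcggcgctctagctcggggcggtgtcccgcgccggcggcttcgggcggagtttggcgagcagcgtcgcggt
Kif3a: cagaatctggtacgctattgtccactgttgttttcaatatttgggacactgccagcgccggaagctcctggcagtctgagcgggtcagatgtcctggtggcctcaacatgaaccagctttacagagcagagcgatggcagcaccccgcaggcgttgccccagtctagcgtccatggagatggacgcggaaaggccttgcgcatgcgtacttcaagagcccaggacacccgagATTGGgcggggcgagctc

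**Figure D3:**
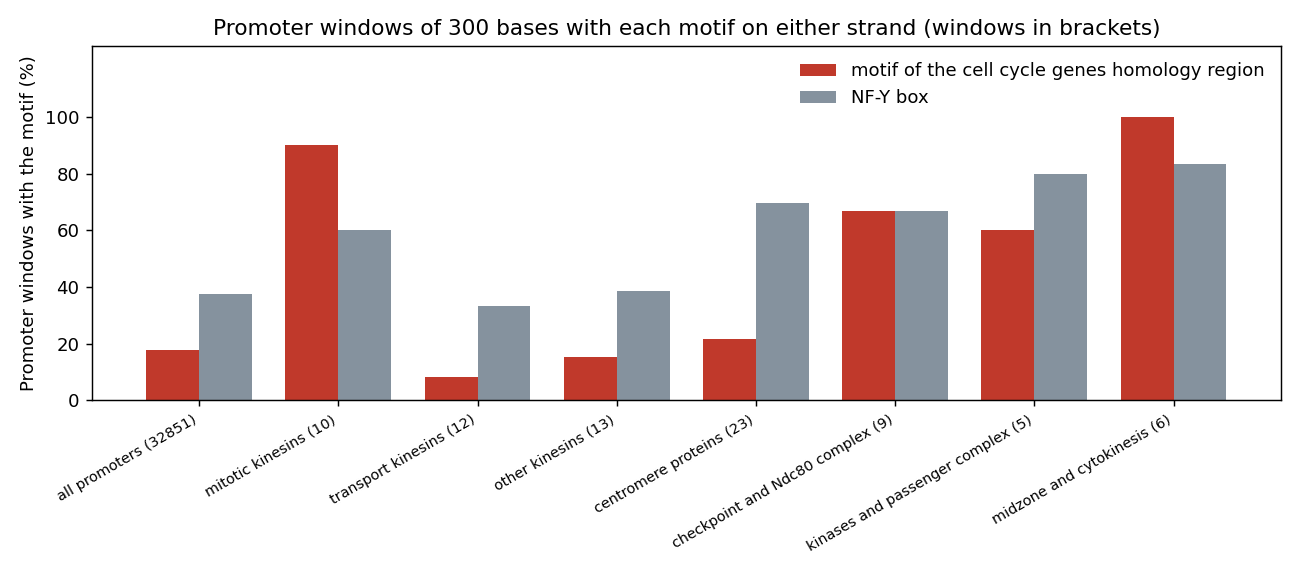
Percentage of promoter windows of 300 bases that hold the letters TTTGAA (red, labelled as the motif of the cell cycle genes homology region) or CCAAT (grey, labelled as the NF-Y box). Both strands were read, for all genes and for 7 groups of members, with the number of windows in brackets. The red bar is at 90% for mitotic and 8.33% for transport kinesins, beside 17.9% of all windows.

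All 20 centromere proteins were above 5 and 15 (75.0%) above 8, beside 71.2% and 37.0% of all genes. Their median was 8.90. Cenpa, the histone variant that marks the centromere, was at 11.11 and 11.04, while the means of its further probe sets were 5.53 and 3.68. Cenpq was at 9.96 and 10.03, Cenpn, which reads the Cenpa nucleosome, at 10.06 and 9.83, and Cenpk at 9.47 and 9.62. These are the 4 highest genes of the group by mean, and Cenpk had a probe set as low as 3.29. The 5 genes not above 8 were Cenpj at 6.91 and 7.06, Cenps at 7.53 and 7.55, Cenpo at 7.69 and 7.70, Cenpl at 7.71 and 7.69 and Cenpu at 7.87 and 7.78. Of these, Cenpj is a protein of centriole growth despite its name. Cenpe, the kinesin that carries chromosomes to the spindle equator, was at 9.05 and 8.78, and Cenpf, a large protein of the outer kinetochore, at 8.94 and 8.83. Cenpb, which binds repeats of centromeric DNA, was at 8.93 and 8.89, and Cenpp at 8.44 and 8.51, with probe sets down to 4.44 and 3.85. The remaining 7 genes, Cenph, Cenpi, Cenpm, Cenpt, Cenpv, Cenpw and Cenpx, had means from 8.20 to 9.37.

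All 9 genes of the spindle checkpoint and of the Ndc80 complex were above 8, beside 37.0% of all genes. Bub3, a platform of the checkpoint, was at 12.21 and 12.19 and Mad2l1, the protein that blocks the anaphase-promoting complex, at 11.93 and 11.98. The checkpoint kinases Bub1 and Ttk were at 10.38 and 10.39 and at 8.52 and 8.48. Their further probe sets had means of 6.43 for Bub1 and 4.59 for Ttk. Bub1b, also called BubR1, was at 9.39 and 9.33 with 1 probe set and at 9.28 and 9.33 with another, but at 4.99 and 4.79 with the third. Bub3 has 5 probe sets, of which 2 were above 5, the highest an _s_at one and the second with a mean of 8.98. The 3 others had means of 4.71, 4.66 and 3.83, so that its median probe set, taken per array, was at 4.83. The 4 subunits of the Ndc80 complex, which grips the microtubule, were measured together. Ndc80 was at 8.47 and 8.43, Nuf2 at 9.18 and 9.17, Spc24 at 9.36 and 9.39 and Spc25 at 10.32 and 10.53. The further probe set of Spc25 had a mean of 5.65. None of the 9 genes differed by more than 0.21 between the arrays.

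Of the 8 mitotic kinases and proteins of the chromosomal passenger complex, 8 were above 5 and 7 above 8. The shares of all genes were 71.2% and 37.0%. With the median probe set, 4 of the 8 were above 8, beside 25.1% of all genes. All 4 parts of the passenger complex, which corrects attachments and guides cytokinesis, were above 8. Its kinase Aurkb was at 9.28 and 9.32, the scaffold Incenp at 10.81 and 10.75, Birc5, or survivin, at 11.10 and 11.06 and Cdca8, or borealin, at 10.70 and 10.82. Both probe sets of Aurkb can read other transcripts by their names (_s_at and _x_at), and the highest probe set of Incenp is also of this kind, the next being at 9.05 and 8.95. Aurka, the kinase of spindle poles, was at 10.19 and 10.29 with 1 probe set and had a mean of 3.77 with the other. Tpx2, its activator, was at 9.83 and 9.81, with means of 8.42, 5.71 and 5.64 on its 3 other probe sets. Plk1, the polo-like kinase of mitotic entry, was at 10.07 and 10.02. Aurkc, the germ cell relative of Aurkb, was at 5.21 and 5.41 (adjusted p = 0.016 from limma). Of the marker genes of male germ cells, Prm1 was at 6.59 and 6.81 with an _x_at probe set. The median and the lowest of its 3 probe sets had means of 3.16 and 3.06. Prm2 was at 5.72 and 5.86, Stra8 at 5.75 and 5.62 and Sycp3 at 5.37 and 5.49, all above 5. Acrv1 was at 3.65 and 3.74, Tnp1 at 3.58 and 3.85 and Sycp1 at 3.60 and 3.83. Ddx4 and Dazl were at 4.17 and 4.26 and at 4.17 and 4.10.

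The 3 genes of the midzone and of cytokinesis and Top2a, 4 of 4, were above 8, beside 37.0% of all genes. Prc1 was at 10.53 and 10.33, Ect2, the exchange factor that starts the contractile ring, at 9.53 and 9.60 and Anln, or anillin, at 11.72 and 11.69. Top2a was at 11.89 on both arrays, while the means of its further probe sets were 6.38 and 4.54. For these 4 genes the arrays differed by at most 0.20.

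**Figure D4:**
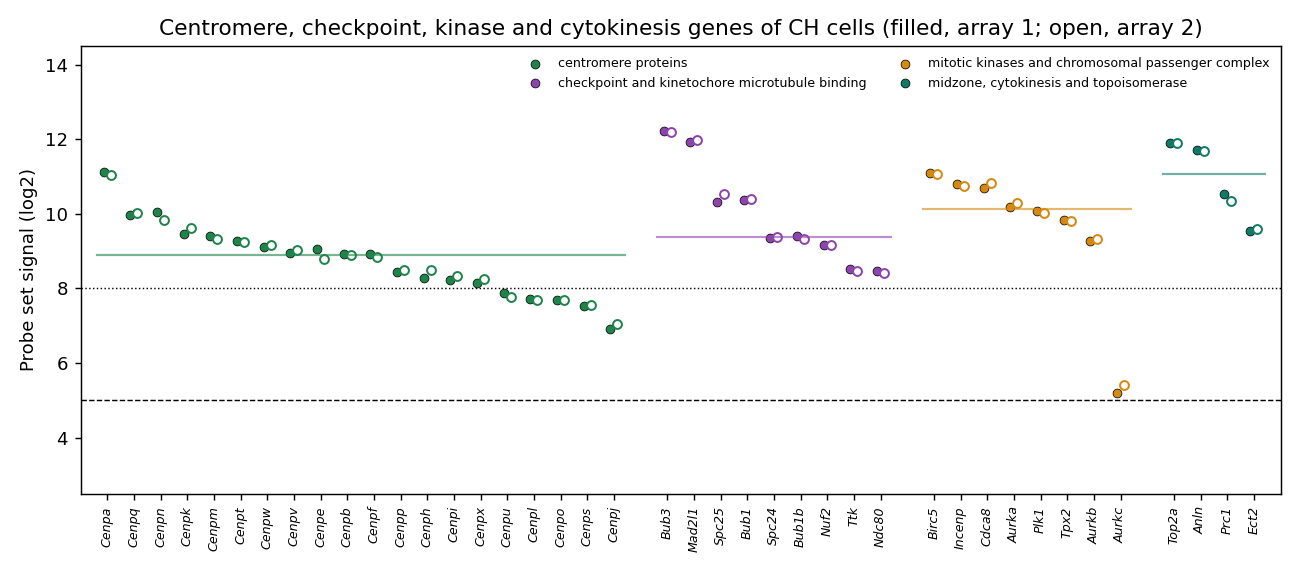
Log2 signal of the highest probe set of 41 genes in CH cells, ordered by mean within 4 groups along the horizontal axis, with a filled circle for array 1 and an open circle for array 2. Coloured lines mark group medians (8.90, 9.38, 10.14 and 11.07), 5 is dashed and 8 dotted. Only Aurkc, near 5.31, lies close to the dashed line.

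Genes of the same pathways that are no members were counted in the same way. Of all genes on the arrays, 71.2% were above 5 and 37.0% above 8. Of 21 further kinetochore genes with a probe set, 21 were above 5 and 15 (71.4%) above 8, from Mad1l1, the partner of Mad2l1, at 5.49 and 5.70 and Nsl1 at 6.34 and 6.60 to Trip13 at 10.60 and 10.64 and Zwint at 11.10 and 11.13. The anaphase-promoting complex with its activators and targets had 18 of 18 above 8, with Pttg1, or securin, at 12.75 and 12.68 and the subunit Anapc5 at 12.61 and 12.58. Its lowest levels were those of Fzr1, at 8.33 and 8.09, and of the separase Espl1, at 9.0 and 8.99. Condensin and cohesin, the complexes that fold and hold chromatids, had 18 of 19 above 8, with Smc4 at 11.49 and 11.42, Rad21 at 11.19 and 11.30, Pds5a at 8.43 and 8.41 and Esco2 at 7.15 and 7.34. Of 15 late cell cycle regulators, 15 were above 5 and 8 above 8, among them Cdk1 at 11.58 and 11.55, Ccna2 at 11.23 and 11.22 and the proliferation marker Mki67 at 10.55 and 9.96. Lin54 was at 8.93 and 9.03 with 1 probe set and had a mean of 4.93 with the other. Lin37 was at 7.57 and 7.54, Lin9 at 7.16 and 7.11 and Foxm1 at 7.57 and 7.51. The lowest were Mybl2 at 6.68 and 6.69 and Lin52, a further MuvB protein, at 6.28 and 6.02.

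The partners of transport kinesins were counted next. Of 9 light chains and adaptors, 9 were above 5 and 4 (44.4%) above 8, beside 71.2% and 37.0% of all genes. Kidins220, a cargo of Kif5 motors, was at 10.33 and 10.25 and Kifap3, the adaptor of Kif3a and Kif3b, at 9.98 and 10.01, while Klc3 was at 6.32 and 6.20 and Mapk8ip1 at 6.49 and 6.22. Dynein and dynactin, which move cargo the opposite way, had 17 of 18 genes above 8. Dynll1 was at 13.49 and 13.52 and Dynlrb1 at 12.06 and 12.06, and the lowest were Nde1 at 9.42 and 9.20 and Dync1i1, the neuronal intermediate chain, at 3.86 and 3.53.

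**Figure D5:**
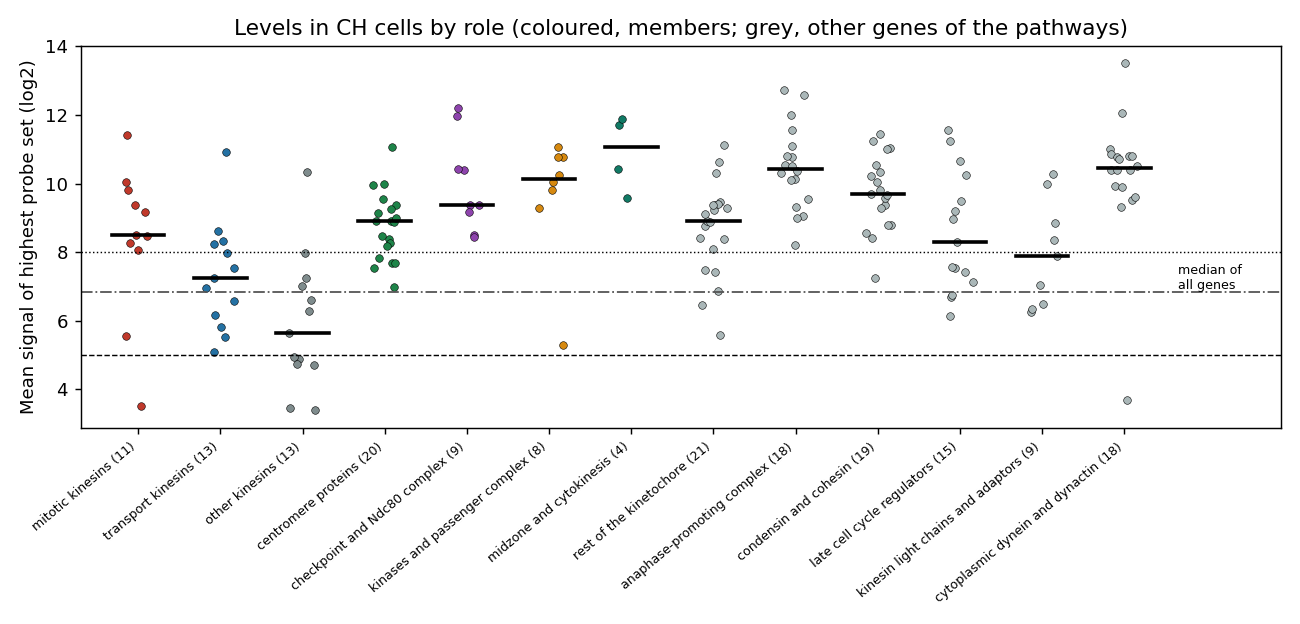
Mean log2 signal over both arrays of the highest probe set per gene, with 1 circle per gene, coloured for the 7 groups of members (dark grey for other kinesins) and light grey for 6 lists of other genes of the same pathways, and the number of genes in brackets. Black bars mark medians, from 5.65 for other kinesins to 11.07 for midzone and cytokinesis genes. The dash-dotted line marks the median of all genes at 6.84, the dashed line 5 and the dotted line 8.

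The members varied little between the pools, as did all genes. The difference between the arrays had an SD of 0.16 over the 78 genes, beside 0.19 over all genes. Its median over the members was -0.007, with 37 genes higher on array 1. The largest difference was 0.53, for Kif5a, a gene near the limit. Between probe sets of 1 gene the differences were much larger. Of 48 members with several probe sets, 25 spanned more than 3, up to 8.37 in Bub3 and 7.40 in Cenpa. The share of all genes that did so was not counted. For 30 members a single probe set was the only reading, among them Kif14 and Kif15.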

How the data were processed

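RNA of CH cells from 2 pools of mice was measured on Affymetrix mouse arrays, 1 per pool. The values that the authors deposited are on a log2 scale, 1 per probe set. In the methods, RMA and quantile normalisation were run jointly on these and public arrays, but whether the deposited values come from that run, and the tool versions, are not given in the sources used here. The file names 45101 probe sets. After removal of 64 controls, 34945 named 1 gene in the platform annotation, 932 named several and 9160 were not listed. Symbols were checked through Entrez identifiers in RefSeq (GRCm38.p6): 34741 probe sets had a match, and 0 symbols changed.

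A limit of 5 was taken from the study's clustering, and 8 was added as a stricter one. Means of probe sets were tested against 5 with limma 3.58.1, under R 4.3.3 (intercept alone, empirical Bayes moderation, two-sided, Benjamini-Hochberg over 45037 probe sets, threshold 0.05). The script was tested on simulated data. The number of arrays limits the precision. Members and lists were chosen with earlier results of these data known. By rule, values on both arrays are given for all genes of groups of up to 13, the 4 highest and lowest of larger groups, every member below 5 on an array or with probe sets over 3 apart, and the 2 highest and 2 lowest of pathway and marker lists with Ptprc and Mki67. Other genes of those lists were named after their values were seen. Motifs were searched with Python 3.11.15. Alternatives were a limit of 6, a limit at the 95th percentile of the chemosensory probe sets, limma (with and without an intensity trend, and against 8), quantile normalization, omission of each array, the median probe set, and omission of _s_at and _x_at probe sets.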

Additional observations from a re-analysis of the deposited data

How the results depend on the processing

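No paired analysis was possible because both arrays belong to the same group. None of the counts above 5 moved by over 1.5 times under any alternative, and those of all members ran from 64 to 72. The share of all genes ran from 57.3% to 72.8%. With the median probe set of each gene, taken per array, in place of the highest, the count above 8 was 32 for all members, 1 for transport kinesins and 4 for mitotic kinases and the passenger complex, beside 25.1% of all genes. When either array was left out, the count of other kinesins above 8 was 1 to 2, through Kif21a, beside 37.6% to 37.8% of all genes. For mitotic kinesins the count above 8 was 8 after quantile normalization and with limma against 8, beside 37.0% and 35.6% of all genes. With the median probe set, 64 members were above 5, beside 65.2% of all genes. Those no longer above 5 were Kif20b at 4.45, Kif5a at 3.93, Kif13b at 4.09, Kif24 at 4.36, Cenpk at 4.61 and Bub3 at 4.83. The mean of Kif5c, which was not called above 5, went to 4.52. Without _s_at and _x_at probe sets, Kif5a was at 3.93. On single arrays, Kif5c ran from 4.98 to 5.22, Kif27 from 4.74 to 5.06 and Kif6 from 4.91 to 5.01, on both sides of the limit. With an intensity trend, Kif9 was no longer below 5 by limma. The other levels of members kept their side of 5.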

Other observations

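Among the C-terminal kinesins, which walk towards the minus end of microtubules and are no members by name, Kifc1, a motor that focuses spindle poles, was at 9.39 and 9.31 (log2) on the 2 arrays. Kifc2 and Kifc3 were at 7.20 and 7.42 and at 7.22 and 6.96. Kifc5b, a near copy of Kifc1, was at 4.78 and 4.55, and how the probe sets share reads of both genes is uncertain.

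Mki67 differed by 0.59 between the arrays, more than any of the 78 members, whose largest difference was 0.53.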
